A study of Rattus norvegicus with 10 samples.

Results

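The core circadian clock genes are the 10 genes Arntl, Clock, Npas2, Per1, Per2, Per3, Cry1, Cry2, Nr1d1 and Nr1d2, chosen by name as the rows of the transcription and translation feedback loop that keeps daily time in cells. All 10 were among the 17168 gene symbols of the deposited tables, and all 10 were among the 11791 genes with enough counts to test. Arntl, Clock and Npas2 form the positive limb (3 genes) and the other 7 form the negative limb. They were measured by RNA sequencing of the left hippocampus in 10 female rats of the TgF344 Alzheimer's disease strain, all killed at 11 months of age.

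The untreated group consisted of 5 transgenic rats on ordinary rodent chow. The RG2833 group consisted of 5 transgenic rats whose chow held 750 mg RG2833 per kg of chow, from 5 months of age and for 6 months. RG2833, per the series title, is an inhibitor of HDAC1 and HDAC3, enzymes that remove acetyl groups from histones. Rats of this strain carry mutant human amyloid precursor protein and presenilin transgenes driven by the mouse prion promoter. Both groups carry them, so the comparison shows treatment within transgenic animals and has no wild-type reference. The time of day at which each rat was killed is not given in the sources used here, so the values are single time points of unknown phase. The labels name separate rats, and p-values measure the spread between these rats.

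In the clock, BMAL1 (encoded by Arntl) pairs with CLOCK, or in the forebrain with its paralogue NPAS2, and switches on genes that carry an E-box in their promoter. Among these are the Per and Cry genes, whose proteins return to the nucleus and block the pair. Nr1d1 and Nr1d2 encode the nuclear receptors REV-ERBα and REV-ERBβ, which are also switched on through E-boxes and repress Arntl, so that over a day Arntl and Nr1d1 transcripts peak at different times. The REV-ERB proteins use histone deacetylase 3, a named target of RG2833, as part of their corepressor complex. In the hippocampus the clock genes cycle over the day and have been linked to memory, and Per1 is also induced by neuronal activity through a cAMP response element.

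The promoters of Arntl, Nr1d1 and Nr1d2, which had unadjusted p-values under 0.05, and of Per2, shown because its window held the most kinds of motif, are printed with the motifs of this loop in capitals. Per1 is not printed, because its listed window lies around a start 5374 bases inside the annotated gene. The sequences are from RefSeq on GRCr8, a build other than the rn6 of the counts, and cover 250 bases before to 50 after an annotated start. The table matched 9 of the 10 genes, all but Cry1, with 11 windows because Clock and Nr1d1 have a further start. The motifs searched on both strands were the E-box CACGTG, the weaker E-prime box CACGTT, the nuclear receptor motif AGGTCA bound by REV-ERB and ROR proteins, the cAMP response motif TGACG and the D-box TTATGTAA. Arntl (listed as Bmal1) is at chr1:176766078-176766377 on the plus strand, Nr1d1 start 1 at chr10:84231763-84232062 and start 2 at chr10:84229405-84229704 on the minus strand, Nr1d2 at chr15:9954784-9955083 on the plus strand, and Per2 at chr9:99496944-99497243 on the minus strand.
Arntl: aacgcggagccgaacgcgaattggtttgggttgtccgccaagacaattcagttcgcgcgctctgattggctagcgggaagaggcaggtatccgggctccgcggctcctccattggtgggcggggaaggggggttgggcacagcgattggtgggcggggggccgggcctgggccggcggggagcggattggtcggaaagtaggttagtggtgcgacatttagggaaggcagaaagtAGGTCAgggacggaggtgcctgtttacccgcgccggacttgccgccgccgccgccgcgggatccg
Nr1d1 start 1: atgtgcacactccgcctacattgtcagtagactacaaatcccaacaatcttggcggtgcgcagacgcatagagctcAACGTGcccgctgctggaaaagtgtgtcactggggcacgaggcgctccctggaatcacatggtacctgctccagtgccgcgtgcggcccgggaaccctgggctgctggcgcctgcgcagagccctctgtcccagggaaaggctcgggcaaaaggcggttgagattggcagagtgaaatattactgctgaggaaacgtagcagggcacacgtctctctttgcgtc
Nr1d1 start 2: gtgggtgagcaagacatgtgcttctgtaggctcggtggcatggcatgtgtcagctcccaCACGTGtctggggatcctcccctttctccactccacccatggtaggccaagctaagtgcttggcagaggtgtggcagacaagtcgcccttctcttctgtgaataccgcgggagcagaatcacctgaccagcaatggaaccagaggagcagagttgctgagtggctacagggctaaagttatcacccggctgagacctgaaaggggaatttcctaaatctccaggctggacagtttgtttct
Nr1d2: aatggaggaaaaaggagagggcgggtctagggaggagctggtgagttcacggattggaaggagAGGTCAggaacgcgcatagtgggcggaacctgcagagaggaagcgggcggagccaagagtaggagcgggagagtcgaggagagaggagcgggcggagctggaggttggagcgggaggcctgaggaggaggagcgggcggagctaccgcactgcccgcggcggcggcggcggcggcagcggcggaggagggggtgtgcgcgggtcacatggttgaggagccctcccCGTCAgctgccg
Per2: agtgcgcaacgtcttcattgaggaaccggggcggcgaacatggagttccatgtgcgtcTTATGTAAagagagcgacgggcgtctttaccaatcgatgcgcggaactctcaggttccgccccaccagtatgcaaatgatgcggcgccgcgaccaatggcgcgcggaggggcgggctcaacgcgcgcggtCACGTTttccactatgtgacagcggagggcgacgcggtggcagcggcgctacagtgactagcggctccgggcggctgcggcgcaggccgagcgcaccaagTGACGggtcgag
The Arntl window held AGGTCA 15 bases before the start, and the Nr1d2 window held it 187 bases before the start. Nr1d1 held CACGTT on the opposite strand (capitals AACGTG) at start 1 and CACGTG at start 2. Per2 held CACGTT 62 bases and TTATGTAA 192 bases before the start. Per2 and Nr1d2 each held TGACG from base 39 after the start, in Nr1d2 on the opposite strand (capitals CGTCA). Of all 33469 windows of 300 bases in the table, 6.42% held CACGTG, 4.83% CACGTT, 16.2% AGGTCA, 21.2% TGACG and 0.893% TTATGTAA on either strand. These matches describe letters only. Of the 9 matched genes, 6 held at least 1 of the 5 motifs in a window, against 43.7% of the 27457 genes of the table. Clock, Npas2 and Per1 held none of them in the windows listed, and for Per1 the sequence at the upstream end of the annotated gene was not used here.

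Total expected counts ranged from 8764266 to 11311673 per library. The markers of hippocampal neurons Prox1, Neurod6, Wfs1, Zbtb20 and Bcl11b were found in every library, and Spink8 was at most 0.185 CPM (TMM-scaled counts relative to library size, the unit of all levels given here). Of the markers of the suprachiasmatic nucleus and hypothalamus, Vip, which interneurons also express, was between 8.27 and 20.7 CPM, and Avp, Hcrt, Oxt and Six6 were at most 1.83 CPM. The 6 hippocampal markers summed to between 402 and 1248 CPM (median 454) in untreated and between 699 and 1275 CPM (median 967) in RG2833 animals. The 5 oligodendrocyte markers summed to between 5387 and 17184 CPM (median 6259) in untreated and between 8678 and 11746 CPM (median 9233) in RG2833 animals, and for both lists the groups overlapped. The summed level of 5 excitatory neuron markers lay between 2125 and 3128 CPM in untreated and between 3395 and 4143 CPM in RG2833 animals, so the groups did not overlap. Ribosomal RNA loci took a share of the counts that also separated the groups, from 2.70% to 5.36% in untreated and from 1.13% to 1.96% in RG2833 animals. The choroid plexus markers summed to at most 44.5 CPM in RG2833 animals but reached 2456 CPM in an untreated animal. The part of these differences in the clock gene values was not tested, except that the ribosomal RNA share was used as a covariate. In such bulk samples, fewer cells of a type and less RNA per cell cannot be told apart.

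To ask whether clock gene levels differed with long-term RG2833, the 10 genes were compared between 5 treated and 5 untreated animals. None of the 10 passed: 0 of 10 had an adjusted p under 0.05 in edgeR's quasi-likelihood test (Benjamini-Hochberg adjustment over 11791 genes), where 5.08% of all tested genes did. At an unadjusted p under 0.05, 4 of the 10 genes passed (Nr1d2, Nr1d1, Per1 and Arntl), against 24.5% of all tested genes. DESeq2's Wald test called 2 of the 10, Nr1d1 and Nr1d2, and 10.9% of all genes. Limma-voom called 0 of the 10 and 4.66% of all genes, and limma trend on the deposited values called 1, Nr1d2, and 5.16% of all genes. The median absolute log2 fold change was 0.20 over the 10 genes and 0.16 over all tested genes. Of the 599 genes called in edgeR's test, 32 had an absolute log2 fold change no larger than that of Nr1d2, and the smallest among the called genes was 0.225, above the median of the 10.

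**Figure D1:**
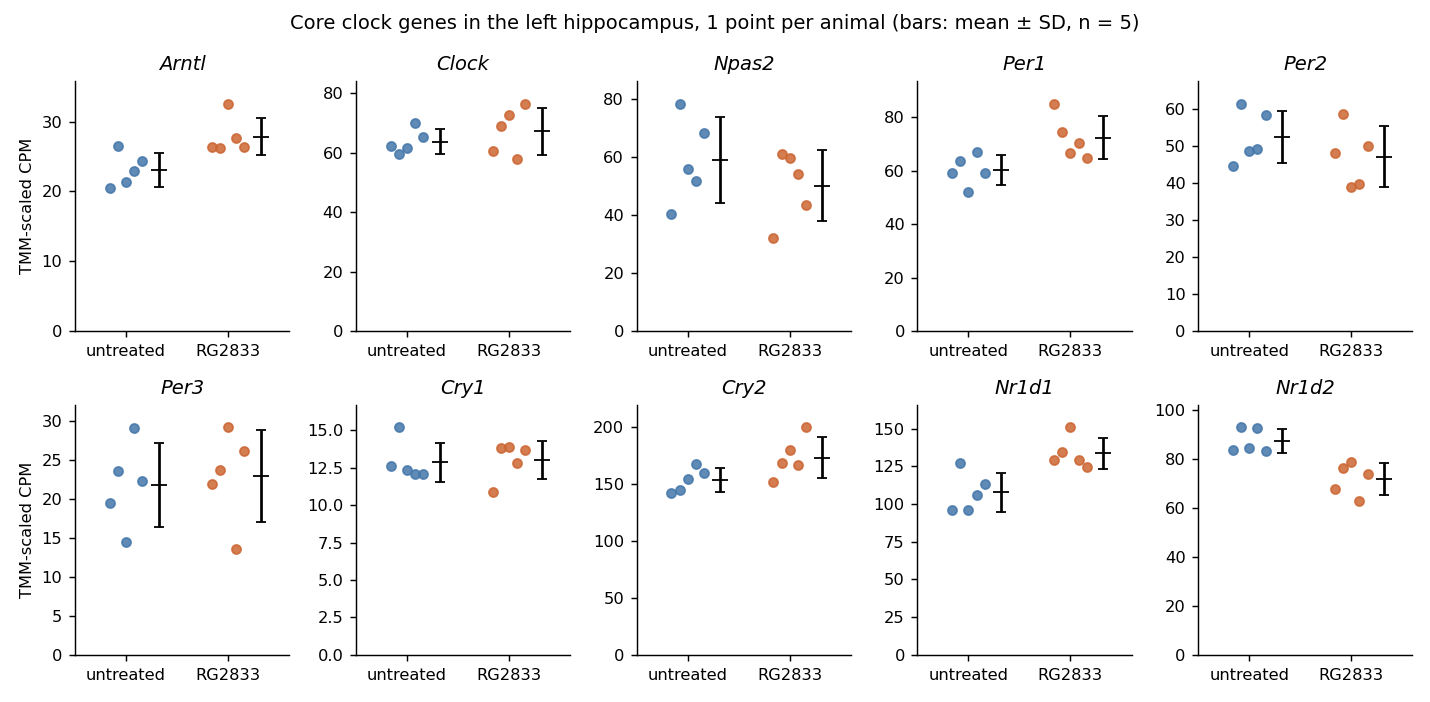
Level of each core clock gene in TMM-scaled CPM (y axis, from 0) in untreated and RG2833 animals, with 1 point per animal and the mean ± SD of 5 animals beside the points. Only for Nr1d2 do the groups not overlap, with all 5 RG2833 animals at or below 78.7 CPM and all 5 untreated animals at or above 83.4 CPM.

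The REV-ERB genes gave the smallest p-values of the 10, and their means lay in opposite directions. Nr1d2 was 83.5, 92.9, 84.5, 92.6 and 83.4 CPM in untreated replicates 1 to 5, and 67.6, 76.4, 78.7, 62.9 and 74.0 CPM in RG2833 replicates 1 to 5. Every RG2833 animal lay below every untreated animal, a separation in that direction found in 3.47% of all tested genes. The log2 fold change of Nr1d2 was -0.28 ± 0.08 (SE), a fold of 0.823 with a 95% interval from 0.735 to 0.922, and its edgeR adjusted p of 0.0505 missed the threshold. That adjusted p was 0.0472 with DESeq2 size factors, 0.0401 when only genes with a mean count of at least 50 were tested, and 0.0437 without untreated replicate 5. It ran from 0.0437 to 0.11 over the 10 fits that each left out an animal and from 0.00947 (DESeq2's Wald test) to 1.00 (with the ribosomal RNA share) over the other settings.

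Nr1d1 was 96.3, 126.9, 96.1, 105.7 and 113.2 CPM in untreated replicates 1 to 5, and 129.1, 134.1, 150.7, 128.9 and 124.7 CPM in RG2833 replicates 1 to 5. Of the 5 RG2833 animals 4 lay above every untreated animal, and only untreated replicate 2 reached into the RG2833 range. The log2 fold change was 0.31 ± 0.09 (SE), a fold of 1.24 with a 95% interval from 1.09 to 1.42 (edgeR adjusted p = 0.0605). Without untreated replicate 2 it was 0.38, with an edgeR adjusted p of 0.0397, and with DESeq2's Wald test the adjusted p was 0.0203. Over the fits without an animal each the adjusted p ran from 0.0397 to 0.147, and over the other settings it reached 1.00.

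The gap between the paralogues was taken as log2 Nr1d1 minus log2 Nr1d2 in each animal, a measure chosen after the values were seen and given without a test. It was between 0.18 and 0.45 in untreated animals and between 0.75 and 1.03 in RG2833 animals, and the groups did not overlap. Its mean was 0.29 ± 0.14 (SD, n = 5) against 0.89 ± 0.11 (SD, n = 5). Nr1d1 overlaps the 3' end of Thra, the thyroid hormone receptor α gene on the other strand, over 1061 bases of the gene spans in the GRCr8 table. The strand setting of the counting is not given in the sources used here, so reads of Nr1d1 and Thra may not have been told apart. The deposited counts of Nr1d1 and Thra were fractional in all 10 animals and those of Clock and Cry2 in 9 of 10, while those of the other 7 core genes, Nr1d2 included, were whole in all 10, where whole means no decimal part in the value as deposited. The untreated mean of Thra was 797.6 ± 129.2 CPM and the RG2833 mean 767.5 ± 41.4 CPM (SD, n = 5 each), which is -0.06 ± 0.11 on the log2 scale (SE; edgeR adjusted p = 0.787). The correlation between Thra and Nr1d1 was 0.12 over the 10 animals after the group means were removed.

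In the positive limb, Arntl had the smallest p-value. It was 20.5, 26.5, 21.3, 22.9 and 24.4 CPM in untreated replicates 1 to 5, and 26.4, 26.2, 32.6, 27.7 and 26.4 CPM in RG2833 replicates 1 to 5. As for Nr1d1, untreated replicate 2 was the one untreated animal inside the RG2833 range, and RG2833 replicate 3 was the highest of all. The log2 fold change was 0.27 ± 0.10 (SE), a fold of 1.20 with a 95% interval from 1.04 to 1.39, and it did not pass (edgeR adjusted p = 0.113). No fit that left out an animal brought it past the threshold, where the adjusted p ran from 0.0929 to 0.246.

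Clock, the partner of Arntl, was between 59.7 and 70.2 CPM in untreated and between 57.9 and 76.5 CPM in RG2833 animals, so the RG2833 range contained the untreated range. Its log2 fold change was 0.08 ± 0.09 (SE; edgeR adjusted p = 0.615), and the 95% interval of the fold, 0.927 to 1.20, bounds the difference. Npas2, the paralogue of Clock in forebrain neurons, was 40.4, 78.5, 56.0, 51.8 and 68.5 CPM in untreated replicates 1 to 5, and 32.2, 61.0, 59.9, 54.2 and 43.6 CPM in RG2833 replicates 1 to 5. The lowest Npas2 value, in RG2833 replicate 1, and the highest, in untreated replicate 2, differed 2.43-fold, the widest range of the 10 genes. The Npas2 difference, -0.23 ± 0.19 on the log2 scale (SE; edgeR adjusted p = 0.479), was not distinguishable from 0, and the interval of the fold ran from 0.635 to 1.14. It was -0.11 without untreated replicate 2 and -0.11 without RG2833 replicate 1.

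Among the period genes, which encode the repressors that accumulate with a delay, Per1 had the smallest p-value. It was 59.1, 63.5, 52.0, 67.0 and 59.1 CPM in untreated replicates 1 to 5, and 85.1, 74.6, 66.7, 70.6 and 65.0 CPM in RG2833 replicates 1 to 5. Of the RG2833 animals 3 lay above every untreated animal, and untreated replicate 4 lay inside the RG2833 range. The log2 fold change was 0.27 ± 0.09 (SE), a fold of 1.20 with a 95% interval from 1.05 to 1.38 (edgeR adjusted p = 0.0964). Without untreated replicate 4 the value was 0.31, with an edgeR adjusted p of 0.0484, the lowest of the 10 fits without an animal each, which reached 0.222.

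Per2 was between 44.6 and 61.5 CPM in untreated and between 39.0 and 58.9 CPM in RG2833 animals, with RG2833 replicates 3 and 4 below every untreated animal. Its log2 fold change was -0.15 ± 0.12 (SE; edgeR adjusted p = 0.477), with an interval of the fold from 0.746 to 1.09. It was -0.09 without untreated replicate 2, -0.09 without RG2833 replicate 3 and -0.24 without RG2833 replicate 2. Per3 was between 14.5 and 29.1 CPM in untreated and between 13.6 and 29.1 CPM in RG2833 animals, so the groups spanned nearly the same range. The log2 fold change of Per3 was 0.07 ± 0.21 (SE; edgeR adjusted p = 0.863), and its interval, from a fold of 0.771 to 1.43, was wide.

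The cryptochromes Cry1 and Cry2 encode the proteins that block CLOCK and BMAL1 directly. Cry2 was 142.1, 144.3, 154.4, 167.2 and 159.5 CPM in untreated replicates 1 to 5, and 151.7, 168.1, 179.3, 166.6 and 199.4 CPM in RG2833 replicates 1 to 5. Of the RG2833 animals 3 exceeded every untreated animal, and the log2 fold change was 0.17 ± 0.08 (SE; edgeR adjusted p = 0.219). Cry1 was between 12.1 and 15.2 CPM in untreated and between 10.9 and 13.8 CPM in RG2833 animals, on counts of 110 to 155 per library. The log2 fold change of Cry1 was 0.02 ± 0.11 (SE; edgeR adjusted p = 0.934), and the interval of the fold, from 0.860 to 1.19, bounds the difference.

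**Figure D2:**
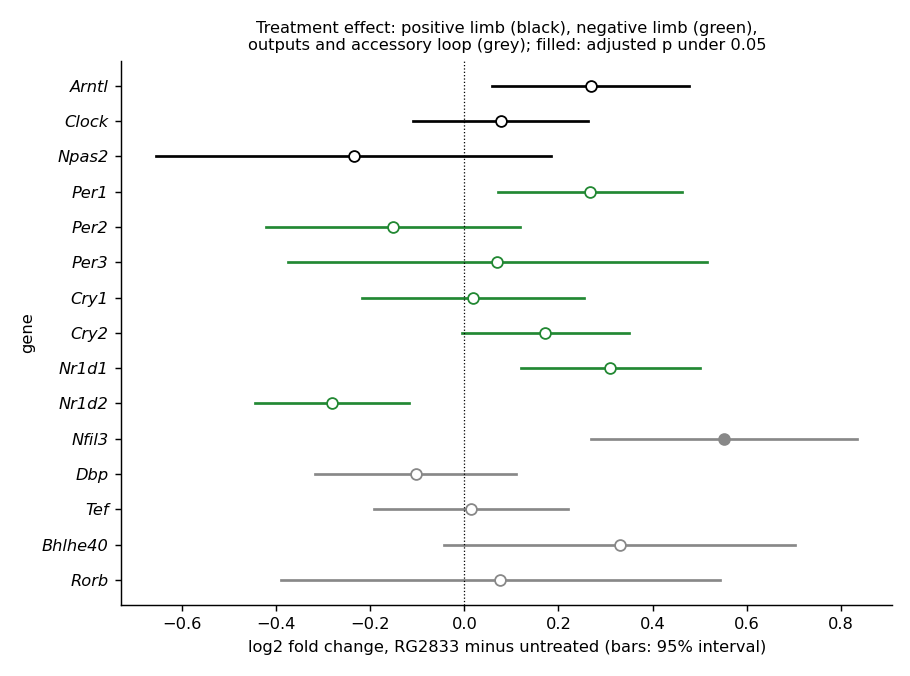
Log2 fold change of RG2833 minus untreated (x axis) with its 95% interval for the 3 positive limb genes (black), the 7 negative limb genes (green) and 5 output or accessory loop genes (grey), where a filled point marks an adjusted p under 0.05 in edgeR's test. Only Nfil3 has a filled point, and the intervals of Arntl, Per1, Nr1d1 and Nr1d2 do not cross 0.

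The genes differed in how much they varied between animals of the same group. Npas2 had a coefficient of variation of 25.1% in untreated and 24.3% in RG2833 animals, and Per3 of 24.8% and 25.7%, while counting alone would give about 4.27% and 6.68%. For Nr1d2 the coefficients were 5.64% and 9.06%, with 3.54% from counting. The within-group SD of log2 CPM of Npas2 and Per3, 0.38 and 0.40, lay at the 85.7th and 87.4th percentile of all tested genes, and that of Nr1d2, 0.11, at the 15.5th. The median over the 10 genes was 0.14, over all tested genes it was 0.19, and over the 6872 tested genes within the range of mean log2 CPM of the 10 it was 0.16. Levels were not compared between genes, because gene lengths of the annotation used were not available for scaling.

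The level of each limb relative to the other was examined in each animal, which at an unknown time of day gives no phase. A limb score was the mean over its genes of log2 CPM centred on the 10 animals, and it is given without a test. The positive limb score was -0.02 ± 0.17 in untreated and 0.02 ± 0.18 in RG2833 animals, and the negative limb score -0.03 ± 0.13 and 0.03 ± 0.11 (SD, n = 5 each). The difference of the limb scores ran from -0.12 to 0.10 in untreated and from -0.24 to 0.15 in RG2833 animals, so the ranges overlapped. The negative limb score averages genes whose means lay in opposite directions, such as Nr1d1 (log2 fold change 0.31) and Nr1d2 (-0.28). The overlap therefore does not show an unchanged phase relation. RG2833 replicate 1, with the lowest Npas2 and the highest Per1, had the lowest difference.

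The level of Arntl relative to Nr1d1, its repressor, varied little between animals. The log2 ratio of Arntl to Nr1d1 was -2.22, -2.25, -2.16, -2.20 and -2.20 in untreated replicates 1 to 5, and -2.28, -2.35, -2.20, -2.21 and -2.23 in RG2833 replicates 1 to 5. The groups overlapped, and the mean differed by -0.05 (exact permutation p = 0.167, two-sided, where 5 animals against 5 cannot go below 0.00794). The SD over the 10 animals was 0.05, below the 0.10 that independent counting error would give on average at mean counts of 255.7 and 1211, so it does not show that the ratio is held constant between animals. With Dbp in place of Nr1d1, the log2 ratio of Arntl to Dbp was higher in RG2833 animals by 0.37 (two-sided exact permutation test, p = 0.0159). Against Per2, the log2 ratio of Arntl was -1.17 ± 0.06 in untreated and -0.75 ± 0.36 in RG2833 animals (SD, n = 5 each), a description with no test, and RG2833 replicate 3 had the highest value, -0.26.

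Across the 10 animals, levels of the 45 pairs of core genes were correlated, and p-values were adjusted over the 45. The 9 pairs with Nr1d2 were given no pooled value, because its groups do not overlap. Of the other 36 pairs, 27 had a Pearson r above 0, and 5 had an unadjusted permutation p under 0.05. After adjustment 1 pair passed, Arntl with Nr1d1 (Pearson r = 0.97, permutation p = 4.0e-05, adjusted p = 0.0018; Spearman rho = 0.83, permutation p = 0.00486, adjusted p = 0.164). Without untreated replicate 1 and RG2833 replicate 3, the animals farthest from the median of Arntl, r was 0.96. Within the groups r was 0.99 in untreated and 0.90 in RG2833 animals, over 5 animals each, given as a description without a test.

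**Figure D3:**
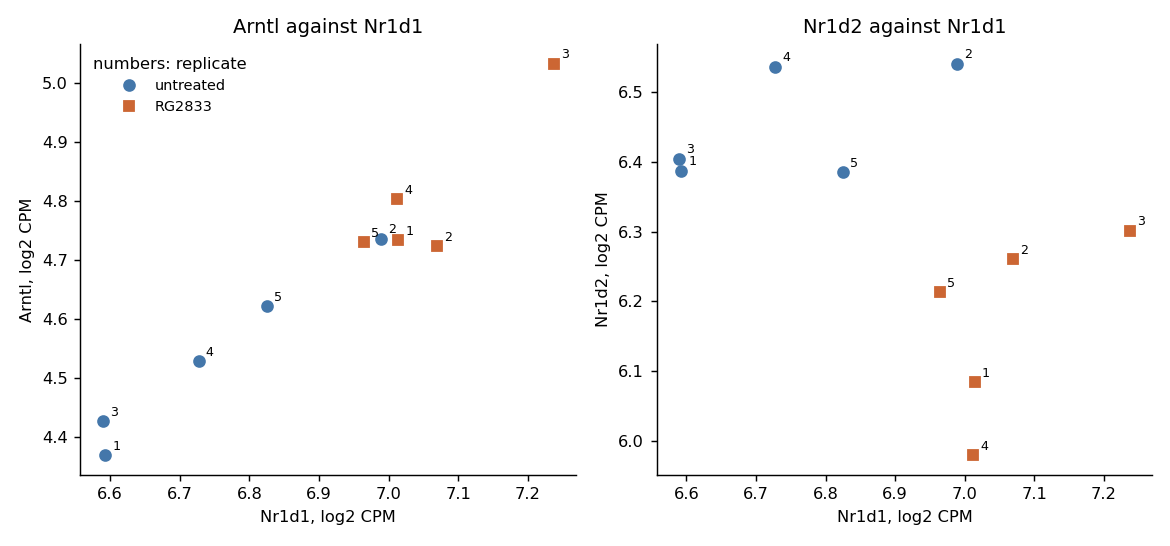
Log2 CPM of Arntl (left) and of Nr1d2 (right) against log2 CPM of Nr1d1, with 1 point per animal numbered by its replicate (circles untreated, squares RG2833). On the left the 10 animals lie close to a single rising line (r = 0.97). The SD of their log2 ratio, 0.05, is below the 0.10 that independent counting error would give on average. On the right the 5 RG2833 animals lie below all 5 untreated animals.

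When the group means were removed and labels permuted within groups, Arntl and Nr1d1 had r = 0.94 (exact permutation p = 0.00236), and the value adjusted over the 45 pairs, 0.0984, did not pass. None of the 45 pairs passed in that form, and 7 had an unadjusted p under 0.05. The next pairs were Per3 with Nr1d2 (r = 0.82, exact permutation p = 0.00438), Clock with Cry2 (r = 0.83, exact permutation p = 0.00687) and Clock with Per3 (r = 0.75, exact permutation p = 0.0111), with adjusted values from 0.0984 to 0.125. Of the 21 pairs between the limbs, 19 had a positive r in that form and 2 a negative r, and their median was 0.34. Within the negative limb 18 of 21 pairs were positive, and 40 of all 45 pairs were, with a median of 0.30. The pairs share genes and animals, and the share of positive pairs among other tested genes was not computed. These counts therefore do not show a trait of the clock genes. Arntl and Per2, a pair picked after the values were seen, had r = 0.97 in untreated and r = -0.75 in RG2833 animals, over 5 animals each. Other pairs also differed in sign between the groups, such as Per1 with Cry2 (0.22 and -0.91) and Cry1 with Cry2 (-0.62 and 0.77). Some pairs kept it, such as Arntl with Nr1d1 (0.99 and 0.90). No such difference was tested.

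**Figure D4:**
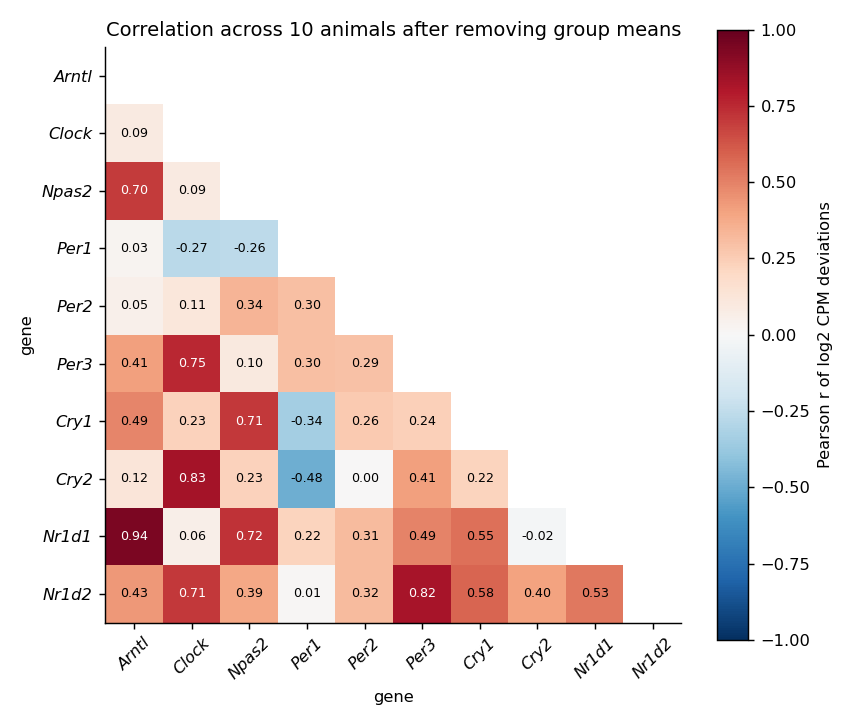
Pearson r of log2 CPM across the 10 animals after the group means were removed, for each pair of the 10 core clock genes (colour scale from -1 to 1). Most cells are red, with the highest value, 0.94, for Arntl with Nr1d1 and the lowest for Per1 with Cry2.

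Genes that the clock drives, or that feed back on it, were taken from a list of 16, of which 11 were in the tables. In that list 1 of 11 tested genes was called higher and 0 lower (edgeR adjusted p under 0.05), against 2.41% and 2.67% of all tested genes. The gene called was Nfil3, whose protein E4BP4 represses promoters with a D-box and is itself repressed by REV-ERB proteins. It was 9.49, 7.99, 6.49, 8.94 and 6.98 CPM in untreated replicates 1 to 5, and 13.5, 11.9, 11.4, 11.3 and 10.5 CPM in RG2833 replicates 1 to 5. Every RG2833 animal lay above every untreated animal, as in 3.8% of all tested genes, on counts of 66 to 141, and Nfil3 rose by 0.55 ± 0.13 on the log2 scale (SE; edgeR adjusted p = 0.0357). When each animal was left out in turn, 3 of 10 fits kept the call, and the edgeR adjusted p ran from 0.0172 to 0.0919. With the replicate numbers as a block the log2 fold change was 0.56 and the edgeR adjusted p 0.0617, and with the ribosomal RNA share added to the model they were 0.46 and 1.00.

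The other outputs did not pass. Dbp, the D-box activator, had a mean of 140.8 ± 16.7 CPM without and 131.1 ± 14.7 CPM with RG2833 (SD, n = 5 each; log2 fold change -0.10 ± 0.10, SE; edgeR adjusted p = 0.547). Tef, a related activator, differed by 0.01 ± 0.10 on the log2 scale (SE; edgeR adjusted p = 0.941), with a sign that flipped with library totals only. Bhlhe40, which encodes the E-box repressor DEC1, was between 38.0 and 77.1 CPM in untreated and between 50.3 and 85.4 CPM in RG2833 animals (log2 fold change 0.33 ± 0.17, SE; edgeR adjusted p = 0.256). Rorb, which encodes an activator at the motif that REV-ERB proteins occupy, differed by 0.08 ± 0.21 on the log2 scale (SE; edgeR adjusted p = 0.857). Of the other 6 tested genes, Tipin, which encodes a partner of TIMELESS at replication forks, and Wee1, a cell cycle kinase gene driven through E-boxes, had an unadjusted p under 0.05. Tipin was between 6.56 and 11.9 CPM in untreated and between 5.96 and 8.39 CPM in RG2833 animals (log2 fold change -0.45 ± 0.17, SE; edgeR adjusted p = 0.121). Tipin, and Btrc of the list that follows, were called in the fit without untreated replicate 5. Wee1 differed by -0.18 ± 0.08 on the log2 scale (SE; edgeR adjusted p = 0.196). The list thus held 3 of 11 genes with an unadjusted p under 0.05, near the 24.5% of all tested genes. Arntl2, Timeless, Usp2 and Id2 had log2 fold changes of -0.65, -0.20, 0.19 and 0.16 and edgeR adjusted p-values from 0.237 to 0.571. The remaining 5 of the 16 were not analysed here.

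Of 15 genes for the kinases, ligases and other enzymes that set the turnover of clock proteins, 13 were tested and 0 passed in edgeR's test. At an unadjusted p under 0.05 there were 3 of 13, a share near the 24.5% of all tested genes, among them Btrc (log2 fold change 0.26), which encodes a ligase for period proteins, and Csnk1e (0.19), which encodes a kinase of period proteins. DESeq2's Wald test called none of these 13, while edgeR's test without untreated replicate 4 called Prkaa1, which encodes a subunit of the kinase AMPK. A further list held 12 genes tied to glucocorticoids or temperature, the cues that carry time to tissues outside the master clock. It included the receptor genes Nr3c1 and Nr3c2. In edgeR's test 0 passed, and 4 of 12 had an unadjusted p under 0.05 beside 24.5% of all tested genes. These were Cirbp (log2 fold change -0.27), a cold-inducible RNA binding protein gene, Hspa1b (-0.35), a heat shock gene, Tsc22d3 (-0.32), a glucocorticoid target, and Nr3c2 (0.40), the mineralocorticoid receptor gene. DESeq2's Wald test called Hspa1b, and edgeR's test without untreated replicate 4 called Nr3c2. Fkbp5 and Sgk1, both glucocorticoid targets, had log2 fold changes of 0.20 and -0.02 and did not pass (edgeR adjusted p = 0.258 and 0.964).

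Per1 shares its cAMP-driven induction with genes that answer neuronal activity. Of 17 such genes, 8 were called higher and 0 lower in edgeR's test, against 2.41% and 2.67% of all tested genes. The median log2 fold change was 0.82 over the 17, beside 0.27 for Per1 and -0.15 for Per2. The summed excitatory neuron markers also separated the groups. With the ribosomal RNA share in the model, edgeR's test called 2 of all tested genes, so most of these 8 calls did not hold there. The list was known from earlier results of these data to be higher in RG2833 animals. After the group means were removed, Per1 had a correlation over the 10 animals of 0.54 with Egr1 and 0.41 with Arc, and Per2 of -0.10 and -0.26. The Egr1 value was not particular to Per1, as Per3 had 0.60 and Nr1d2 0.46. With Arc, Per1 was the highest of the 10 core genes, Nr1d2 had 0.18 and Per3 -0.01. The part of the activity gene difference in the Per1 value was not tested.

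For 4 of the core genes, the genes outside the clock with the most similar pattern were sought among 10322 genes, by Pearson correlation over the 10 animals after the group means were removed, as a description. Arntl was closest to Zmym6 (r = 0.97), Ccnj (0.92) and Ddx51 (0.92), and Nr1d1 to Ddx51 (0.95), Slc24a6 (0.94) and Zmym6 (0.94). That Zmym6 and Ddx51 were shared is likely from the r of 0.94 between Arntl and Nr1d1 themselves. No chance level was computed for the highest of 10322 genes over 10 animals. Per1 was closest to Bet1l (0.93), Fyttd1 (0.91) and Eid1 (0.91), and Per2 to LOC100125368 (0.89), Invs (0.87) and Armc7 (0.86). None of these genes passed in the treatment comparison, where edgeR adjusted p-values ran from 0.0772 to 0.941.

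**Figure D5:**
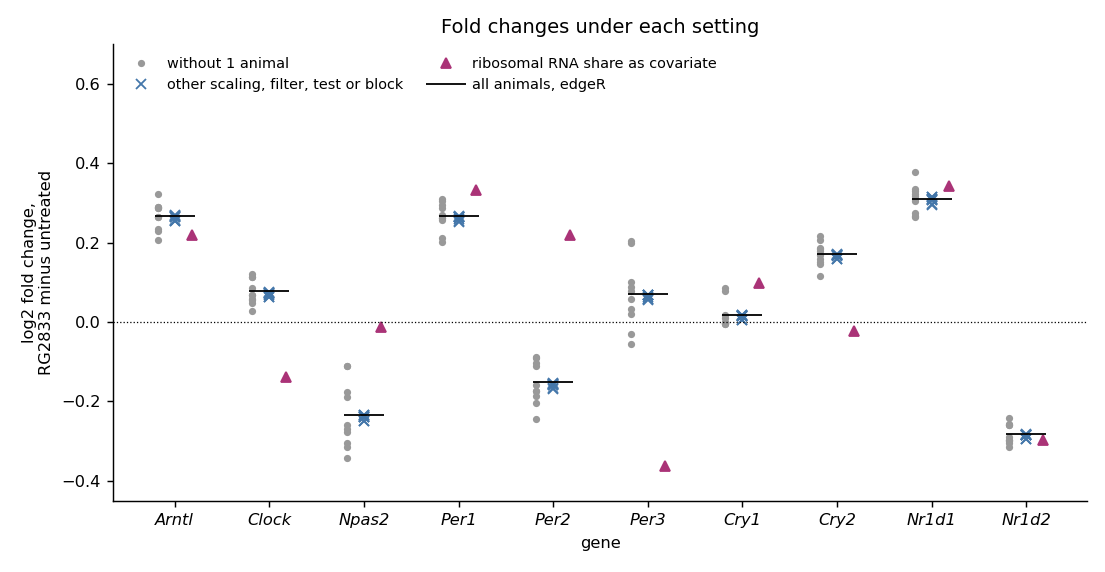
Log2 fold change of RG2833 minus untreated (y axis) for each core clock gene with all animals in edgeR's test (black dash), without each animal in turn (grey points), under another scaling, filter, test or block (crosses) and with the ribosomal RNA share in the model (triangles). Arntl, Per1 and Nr1d1 stay above 0 and Npas2 and Nr1d2 below 0 in all of them, while the triangles of Clock, Per2, Per3 and Cry2 lie across 0 from the dash.

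With the share of ribosomal RNA in the model, 0 of the 10 genes passed (edgeR), and Arntl, Per1, Nr1d1 and Nr1d2 had log2 fold changes of 0.22, 0.33, 0.34 and -0.30. Their sizes moved little. Npas2 kept its sign but went from -0.23 to -0.01, Rorb went from 0.08 to 0.85, and Clock (-0.14), Per2 (0.22), Per3 (-0.36) and Cry2 (-0.02) changed sign. Because the share separates the groups, the treatment and the share cannot be told apart in this design.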

How the data were processed

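RNA of the left hippocampus of 10 rats was made into strand-specific mRNA libraries, per the labels' protocols. The submitters' processing notes name bcl2fastq 2.17, Bowtie2 2.1.0, RSEM 1.2.15, edgeR and the build rn6, with no role or order. The authors deposited expected counts per gene symbol (RSEM, per the file name) and a normalized signal, CPM after TMM scaling. Columns were assigned by the sample titles in their names.

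Expected counts were rounded, filtered with filterByExpr by group (11791 of 17168 genes kept) and tested with edgeR 4.0.16's quasi-likelihood test (R 4.3.3, TMM scaling, no covariate). P-values were adjusted by Benjamini-Hochberg over all tested genes, with a threshold of 0.05. Standard errors were taken from the F statistic (log2 fold change over its root). Log2 CPM used a prior count of 2. Correlations used 100000 permutations. The script was tested on simulated data. Chi-square per degree of freedom was 16.3 to 36.3 between untreated libraries and 4.60 to 10.2 between RG2833 libraries. No 2 libraries of a group thus agreed within counting noise, and untreated libraries differed more from each other. A floor of 3 counts is 0.268 to 0.343 CPM, for counting error only.

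The 10 core genes, the lists and the tests were chosen with earlier results of these data known. Named genes were the core genes, listed genes past the threshold, 10 set accessory genes, and for Arntl, Per1, Per2 and Nr1d1 the 3 most correlated genes with a mean log2 CPM of at least 2. Other names were chosen after their values were seen. Alternatives were other scalings, filters, DESeq2 1.42.0, limma 3.58.1, a replicate block, the ribosomal RNA share (Rn45s, Rn28s, Rn5-8s and LOC257642) as a covariate, and leaving out each animal. A result of 1 listed gene is not reported here.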

Additional observations from a re-analysis of the deposited data

Results flagged for a closer look

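Of 26 groups of 5 values examined (the 10 core genes, both limb scores and the Arntl to Nr1d1 ratio, each in both groups), 2 held a value set apart from the rest by more than 0.71 of the range, and chance gives about 1 in 20. RG2833 replicate 3 had an Arntl level of 32.6 CPM, and the other 4 treated rats lay between 26.2 and 27.7 CPM (gap 0.763 of the range). Without that animal the log2 fold change of Arntl was 0.21. Untreated replicate 2 had a Cry1 level of 15.2 CPM, and the other 4 untreated rats lay between 12.1 and 12.6 CPM (gap 0.832 of the range).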

How the results depend on the processing

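The number of core clock genes called was 0 with all animals. It was 1 with DESeq2 size factors, 1 with a mean count of at least 50, 1 with limma trend on the deposited values (Nr1d2 each time) and 2 with DESeq2's Wald test. It ran from 0 to 1 over the 10 fits that left out an animal. The number of all genes called, 599, was 1286 with DESeq2's Wald test, 180 with the replicate block, 2 with the ribosomal RNA covariate and 98 to 1556 without an animal each, the highest without untreated replicate 4. The number of other clock pathway genes called, 1, was 2 with DESeq2's Wald test, 0 with the replicate block, 0 with the covariate and 0 to 3 without an animal each. The cause was not tested.

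With the covariate the log2 fold change was -0.14 for Clock, 0.22 for Per2, -0.36 for Per3, -0.023 for Cry2, 0.017 for Dbp and 0.37 for Thra, each opposite in sign to the value without it. Without an animal each, Npas2 ran from -0.34 to -0.11, Per2 from -0.24 to -0.089, Clock from 0.028 (without RG2833 replicate 5) to 0.12 (without RG2833 replicate 4) and Dbp from -0.16 (without untreated replicate 1) to -0.049 (without untreated replicate 2), all with their sign kept. Per3 ran from -0.054 to 0.20, Cry1 from -0.0044 to 0.086, Tef from -0.055 to 0.058, Rorb from -0.12 to 0.18 and Thra from -0.12 to 0.0023. Tef was -0.0020 with library totals only. Arntl, Per1, Nr1d1 and Nr1d2 kept their direction in all of these alternatives. Npas2 did too, but with the covariate it was -0.011 against -0.23 without it. Rorb kept its sign and went from 0.077 to 0.85 with the covariate, and Bhlhe40 went from 0.33 to 0.13.

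The Arntl to Nr1d1 log2 ratio difference of -0.05 became 0.37 with Dbp in place of Nr1d1 and ran from -0.06 to -0.02 without an animal each. Of the core gene pairs, 1 passed with all animals, 0 with Spearman rho, 0 with deviations from the group means, and 1 to 2 without an animal each. The replicate numbers name different rats, and the correlations of same-numbered deviations ran from -0.32 to 0.15, so they did not pair the animals. With the replicate block 0 core genes passed, and the ratio difference had an exact permutation p of 0.0625, the smallest that block allows.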
